A study of Mus musculus with 4 samples.

Results

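This report describes 6 genes of purinergic signalling in microglia, the receptors P2ry12, P2ry13, P2ry6, P2rx4 and P2rx7 and the ectonucleotidase Entpd1, chosen by symbol among the 28692 genes of the count tables. They were measured by single-cell RNA sequencing in 4 libraries, each of the cortex and hippocampus of 1 male C57BL/6J mouse aged 90 days. All 4 mice had received PBS by tail vein injection (by the labels 24 hours before they were killed, while the study's methods give another interval, so it is uncertain), and all tissue was dissociated by cold Dounce homogenization, a mechanical method on ice without enzymes. Live CD45+/CD11b+ cells were then sorted, so other myeloid cells could enter beside microglia. The study's methods text gives that gate, while its sample sheet adds CX3CR1+ for this set of mice, so the gate is uncertain. The last of these 4 mice to be sorted was sorted again after the sorter clogged, and its cells spent extra time at room temperature. The labels give 1 group, cold Dounce, PBS (n = 4), and the replicate numbers 1 to 4 only name the libraries. There was no treated or enzymatically digested group among these samples, so the comparisons are between cells within each library.

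Cells release ATP and other nucleotides when active or damaged, and neighbouring cells sense them through purinergic receptors. P2Y receptors couple to G proteins, while P2X receptors are ion channels opened by ATP. P2ry12 encodes an ADP receptor through which microglial processes move towards an injury, and it is widely used as a marker that tells microglia from other brain macrophages. P2ry13 encodes a closely related ADP receptor, and P2ry6 a UDP receptor linked to phagocytosis. P2rx4 encodes a channel studied in microglia after nerve injury, and P2rx7 a channel that needs high ATP and activates the NLRP3 inflammasome. Entpd1 encodes CD39, an enzyme of the cell surface that breaks ATP and ADP down to AMP.

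The genes lie on 4 chromosomes of GRCm38 (GENCODE M21), and all 6 are protein coding. P2ry12 (ENSMUSG00000036353) lies on the minus strand of chromosome 3, from 59216272 to 59262871, and P2ry13 (ENSMUSG00000036362) on the same strand from 59207892 to 59210882, 5389 bases from it. Both lie within Med12l, a gene on the opposite strand, whose exons share 9 bases with those of P2ry12 and 0 with those of P2ry13. P2rx7 (ENSMUSG00000029468, chromosome 5, 122643911 to 122691432) and P2rx4 (ENSMUSG00000029470, chromosome 5, 122707544 to 122729738) are also neighbours, on the plus strand and 16111 bases apart. P2ry6 (ENSMUSG00000048779) lies on the minus strand of chromosome 7, from 100937630 to 100974649, and Entpd1 (ENSMUSG00000048120) on the plus strand of chromosome 19, from 40612366 to 40741602.

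The promoter windows of P2ry12 and P2ry13 are shown because these neighbours were the members that were lower together in the MHC class II and border comparisons described further on. Each window runs from 250 bases before to 50 bases after the gene's start in RefSeq (GRCm38.p6), 5′ to 3′ on the gene's strand, at chr3:59262936-59263235 for P2ry12 and chr3:59210833-59211132 for P2ry13. Capitals mark the shorter ETS motif AGGAAGT.
P2ry12: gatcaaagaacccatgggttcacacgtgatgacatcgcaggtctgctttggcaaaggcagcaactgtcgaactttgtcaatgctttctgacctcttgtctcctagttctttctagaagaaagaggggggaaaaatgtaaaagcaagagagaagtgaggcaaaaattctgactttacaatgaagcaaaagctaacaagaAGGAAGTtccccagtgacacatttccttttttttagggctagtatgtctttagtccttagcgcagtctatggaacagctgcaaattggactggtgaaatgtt
P2ry13: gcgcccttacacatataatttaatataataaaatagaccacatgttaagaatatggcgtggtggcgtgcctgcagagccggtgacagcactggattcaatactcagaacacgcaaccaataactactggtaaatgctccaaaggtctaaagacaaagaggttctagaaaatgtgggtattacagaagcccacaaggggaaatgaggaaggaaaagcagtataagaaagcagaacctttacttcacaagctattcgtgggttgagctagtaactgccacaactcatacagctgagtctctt
Both windows hold 42.3% G and C, below the median of 52.7% over 32851 RefSeq promoter windows of this length. They hold 4 and 6 CpG dinucleotides, with a median of 7 over all windows. On both strands, neither holds the PU.1 motif GAGGAAGT (3.20% of all windows do), the AP-1 motif TGANTCA (7.81%) or an interferon-stimulated response element (3.44%). The ETS motif, which lies inside the PU.1 motif and was added after the windows had been read, occurs once in the P2ry12 window and in 9.35% of all windows. Of the other members, P2rx7 has an AP-1 match in 1 of its 2 windows and a PU.1 match in the other, while P2rx4 and both windows of Entpd1 have no match to any of the 4 motifs. P2ry6 is named only.

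The count tables held 13138 cell barcodes and between 5867333 and 11275195 UMIs (unique molecular identifiers, 1 per captured RNA molecule) per library, and 13002 cells with 400 genes or more and a mitochondrial share of 10% or less were kept. Levels are given as CPM (counts per 1000000 UMIs), that is UMI counts scaled to the same total in every library or class of cells. In 3′ UMI data each molecule is counted once, so levels of different genes were compared without scaling by gene length. The 8 microglial markers summed to between 35960 and 36863 CPM per library, the 7 border macrophage markers to between 12.6 and 79.7 CPM, monocyte markers to between 9.41 and 48.6 CPM, dendritic cell markers to between 2.04 and 7.89 CPM, and no list of other cell types to more than 13.6 CPM. Neutrophil markers had 0 UMIs, lymphocyte markers summed to at most 0.111 CPM, neuronal, oligodendrocyte, astrocyte and endothelial markers to at most 1.67, 4.00, 0.667 and 13.6 CPM, and Cd3e, Nkg7, Syt1 and Cldn5 were at 0. A total of 81 barcode sequences occurred in more than 1 library. Replicate 4 stood apart in immediate early genes and held 249 of the 289 cells positive for them. The study numbers the mouse that was sorted again as the last of 4, and replicate 4 is the last library in the order of the titles. The titles carry other numbers, so no label ties that mouse to replicate 4. The match rests on this order and on a report of the study. It found its signature of cell isolation, which includes Fos and Dusp1, almost only in that mouse. The part of the second sort in any value was not tested.

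P2ry12 was by far the most abundant member and the 12th most abundant gene of all. Its level was 5168, 5361, 5661 and 5493 CPM in replicates 1 to 4 (5421 ± 209 CPM, SD, n = 4). P2ry13 stood at 884, 895, 1056 and 999 CPM (959 ± 83.3). These 2 ADP receptors differed by 5.67 ± 0.295-fold within libraries, although they share a locus and a strand. P2ry12 alone gave 71.5% of the UMIs of the 6 members, whose sum was 7577 ± 237 CPM.

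The remaining members formed a descending order that was the same in every library. The UDP receptor P2ry6 was at 703, 638, 643 and 582 CPM (641 ± 49.3). The ectonucleotidase Entpd1 was at 354, 360, 326 and 315 CPM (339 ± 21.8). Both ion channels were lowest. P2rx4 stood at 151, 138, 122 and 128 CPM (135 ± 12.8), and P2rx7 at 81.3, 78.7, 87.0 and 84.4 CPM (82.9 ± 3.59). The ranges of neighbours in this order did not overlap, and P2rx4 exceeded P2rx7 by 1.63 ± 0.211-fold in 4 of 4 libraries, P2ry13 exceeded P2ry6 by 1.51 ± 0.212-fold, P2ry6 exceeded Entpd1 by 1.89 ± 0.102-fold and Entpd1 exceeded P2rx4 by 2.52 ± 0.151-fold. These are descriptions of levels, with no test between genes. No library stood apart in any member's level or detection by Dixon's range test, and the highest library exceeded the lowest by at most 1.24-fold, for P2rx4.

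**Figure D1:**
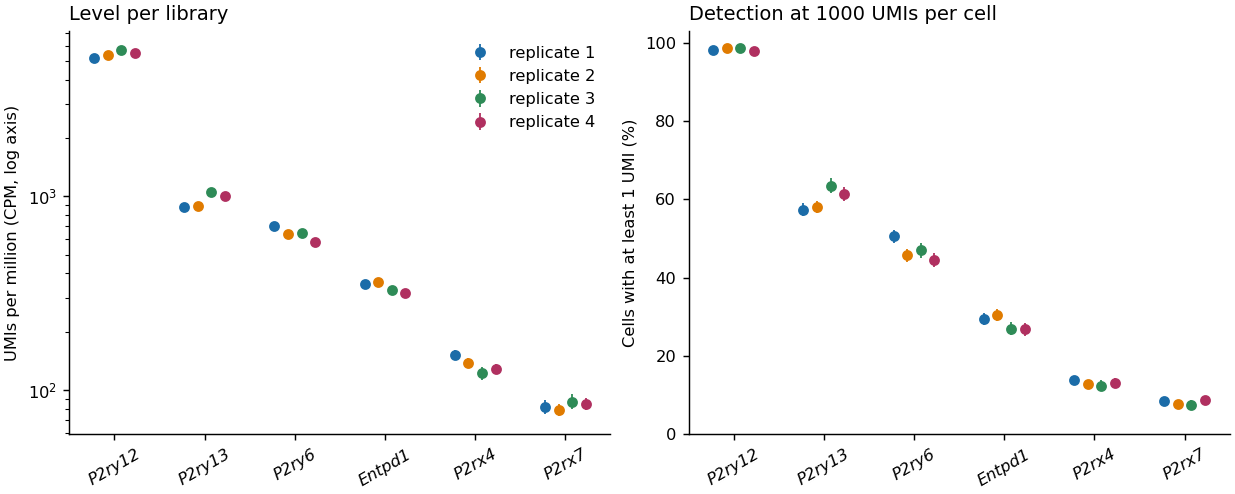
Level in CPM on a log axis (left) and percentage of cells with at least 1 UMI after thinning to 1000 UMIs per cell (right) for each member, with 1 point per library and bars for the exact 95% counting interval. P2ry12 lies between 5168 and 5661 CPM, and P2rx7 between 78.7 and 87.0 CPM.

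Detection followed the same order. It was compared in 12737 cells thinned at random to 1000 UMIs, since a deeper cell shows more genes. P2ry12 had a UMI in 98.4 ± 0.460% of cells (SD over 4 libraries), P2ry13 in 60.1 ± 2.86%, P2ry6 in 46.9 ± 2.62%, Entpd1 in 28.4 ± 1.81%, P2rx4 in 12.97 ± 0.550% and P2rx7 in 8.03 ± 0.535%. On the full counts the shares were 99.7%, 86.3%, 76.1%, 54.9%, 27.7% and 18.6% in the same order. The shares of P2rx4, P2rx7 and Entpd1 thus rose with depth, and a cell without a UMI of them cannot be called negative for the gene. The cells held no large set of a type that should lack these genes, so free RNA could not be measured. In the 34 cells with at least 5 border marker UMIs, which include macrophages known to use several of these genes, 17 had a UMI of P2ry12, and shares of 26.5% had one of P2ry13, 44.1% of P2ry6, 20.6% of Entpd1, 8.82% of P2rx4 and 20.6% of P2rx7 at the same depth.

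At 1000 UMIs a cell carried UMIs of 2.52 to 2.58 of the 6 members on average, over the 4 libraries. Between 0.273% and 0.649% of the cells of a library carried none, and at most 0.0818% carried all 6. A count of 0 for P2ry12 was rare, in 205 of 12737 cells (1.61%). Of those 205 cells, 34 (16.6%) were positive for border markers, compared with 40 of the other 12532 cells (0.319%). These shares are pooled, and the libraries differed. In replicates 1 to 4, 8 of 62, 1 of 46, 3 of 30 and 22 of 67 P2ry12-zero cells were border marker-positive. The other cells of these libraries held 4, 8, 13 and 15 border marker-positive cells. P2ry12-zero cells made up 1.77%, 1.25%, 1.20% and 2.17% of cells in replicates 1 to 4, and their median UMI count was at or above that of the other cells of the same library in 4 of 4 libraries.

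Across cells, no member varied closely with another. The correlation of log counts at 1000 UMIs per cell, computed within libraries and averaged over 4, was highest among members for P2ry12 with P2ry13, at 0.111 (0.0831 to 0.136), and the cells share depth and library. Genes were named as most like a member only where the correlation was at least 0.1 in every library. Of 3099 genes examined, those reported here for P2ry12 are Selplg at 0.176 and Sparc at 0.159, both abundant in microglia. No other member had one. These are weak correlations in sparse counts and are given as a description.

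The rest of the pathway was mostly low. The list of 15 other receptors held purine and nucleotide receptors and some relatives of them with other ligands. Only Gpr34, a lysophosphatidylserine receptor related to P2ry12, and Adora3, an adenosine receptor, reached a mean of 10 CPM, at 2400 ± 80.5 and 216 ± 20.6 CPM. P2ry4, P2ry10, P2rx2 and Adora2a had 0 UMIs in all libraries. Of 22 enzymes, channels and transporters 7 reached 10 CPM, led by Pnp, which breaks down purine nucleosides, at 245 ± 16.0 CPM, and the nucleoside transporters Slc29a3 at 216 ± 8.06 CPM and Slc29a1 at 153 ± 10.1 CPM. Nt5e, which encodes CD73, the enzyme that turns the AMP made by CD39 into adenosine, had 0 UMIs, as did 7 others of this list. A count of 0 allows up to 0.514 CPM in the shallowest library, from 3 UMIs of its total and for counting error only.

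Of 7 effectors downstream of these receptors 6 reached 10 CPM. Pycard, the inflammasome adaptor, was at 622 ± 41.1 CPM, Gnai2, a G protein subunit to which P2Y12 couples, at 547 ± 69.2 CPM, and Kcnk13, the potassium channel of microglial surveillance, at 112 ± 4.70 CPM. All 6 members and all of these genes passed the filter of 10 CPM used for testing.

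The members were next compared between cells positive and negative for each of 5 gene lists within each library: 14 interferon-stimulated genes, the chemokines Ccl3 and Ccl4, 3 MHC class II genes (H2-Aa, H2-Ab1 and H2-Eb1), 6 immediate early genes (Fos, Fosb, Egr1, Ier2, Atf3 and Dusp1), and 16 markers of border macrophages, monocytes and dendritic cells, called border markers. A positive cell had at least 2 UMIs of the list after thinning to 1000 UMIs and a negative cell had 0. Counts were summed per library and class, and positive and negative sums were compared with edgeR's quasi-likelihood test with the library as a block, for all genes at 10 CPM or more, with Benjamini-Hochberg adjustment over all genes tested. Libraries with fewer than 10 positive cells were left out of a test. A gene was called at an adjusted p below 0.05. In these sums, fewer cells of a type and less RNA per cell cannot be told apart. Detection at 1000 UMIs is a separate measure. Pooled over libraries, P2ry12 had a UMI in 57.1% of MHC class II-positive and 54.1% of border marker-positive cells. It had one in 96.2%, 94.2% and 93.4% of interferon-, chemokine- and immediate early gene-positive cells. In negative cells the share was at least 97.85% in every library. The MHC class II-positive share was 38.5%, 88.9%, 63.6% and 54.1% in replicates 1 to 4. The border marker-positive share was 33.3%, 88.9%, 81.25% and 40.5%. For interferon-positive cells it was 100%, 100%, 95.2% and 82.6%, and for chemokine-positive cells 100%, 87.5%, 94.4% and 94.9%. For immediate early gene-positive cells it was 73.3%, 82.4%, 87.5% and 95.6%, and 249 of these 289 cells were in replicate 4.

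**Figure D2:**
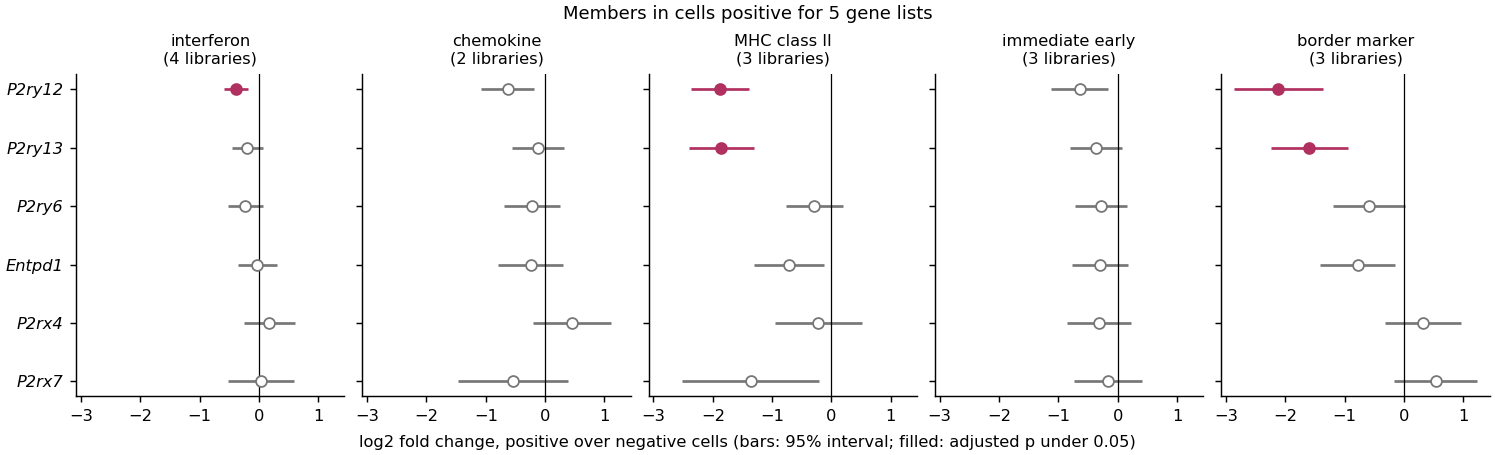
Log2 fold change of each member in positive over negative cells for the 5 gene lists, with the 95% interval from edgeR's quasi-likelihood fit and the number of libraries tested. Filled points passed an adjusted p of 0.05, namely P2ry12 in interferon-positive cells and P2ry12 and P2ry13 in MHC class II-positive and border marker-positive cells.

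P2ry12 and P2ry13 were both lower in MHC class II-positive cells, at 0.272- and 0.276-fold of the negative cells, while the other 4 members were not called. MHC class II molecules present antigen and are low in resting microglia. P2ry12 stood at 1590, 2972, 1170 and 1426 CPM in the positive cells of replicates 1 to 4, compared with 5182, 5375, 5690 and 5560 CPM in the negative cells, and the 2 classes did not overlap. Replicate 2 was the mildest, with 9 positive cells, and was not in the test. P2ry12 fell by 1.88 ± 0.25 on the log2 scale (SE, 3 libraries), to 0.272-fold (95% interval 0.193 to 0.383, adjusted p = 2.39e-11, edgeR).

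P2ry13 moved with it. Its level was 269, 763, 195 and 262 CPM in positive cells and 883, 895, 1056 and 1011 CPM in negative cells, again without overlap. P2ry13 fell by 1.86 ± 0.28 on the log2 scale, to 0.276-fold (95% interval 0.189 to 0.404, adjusted p = 5.09e-09). These were 2 of 6 members called, both lower, where 6.01% of the 7653 genes tested were called in either direction. The median log2 fold change was -1.04 over the members and -0.27 over all genes. Of the called genes 258 were higher and 202 lower, and by library totals in place of TMM scaling 283 were higher and 413 lower.

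The other receptors and Entpd1 were not called in the same test. P2rx7 and Entpd1 had an unadjusted p below 0.05 by edgeR, as did 15.1% of all genes. P2rx7 stood at 48.9, 78.9, 27.9 and 23.1 CPM in positive cells, from 9 UMIs in all, and at 81.0, 79.2, 86.6 and 86.3 CPM in negative cells (log2 fold change -1.36 ± 0.59, adjusted p = 0.198). Entpd1 was at 269, 237, 139 and 162 CPM in positive cells and 353, 361, 329 and 321 CPM in negative cells (log2 fold change -0.72 ± 0.30, adjusted p = 0.176). The values of both were lower in 4 of 4 libraries, though P2rx7 in replicate 2 was nearly level with the negative cells (78.9 and 79.2 CPM). By library totals Entpd1 was called, at -0.80 on the log2 scale (adjusted p = 0.0209). For P2ry6 the fold was 0.819 (95% interval 0.585 to 1.15), and for P2rx4 it was 0.859 (0.518 to 1.42), and both intervals include no change.

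Other microglial genes were lower along with P2ry12 and P2ry13 here, while border markers were higher. All 8 of the microglial markers were called lower in MHC class II-positive cells, with a median log2 fold change of -1.40, and their sum was 13086 to 24355 CPM in the positive cells of the 4 libraries and 36028 to 37143 CPM in the negative cells. Border markers summed to 1578 to 2703 CPM in positive and 44.4 to 104 CPM in negative cells, and 30 of the 70 positive cells (42.9%) were border marker-positive. Gpr34 (log2 fold change -1.59, adjusted p = 2.01e-08) and Adora3 (-1.25, adjusted p = 0.0213) were lower as well, which was 2 of 2 other receptors tested (1 of 2 without border marker-positive cells, where Adora3 was at -0.83, adjusted p = 0.340), while 0 of 7 enzymes, channels and transporters and 0 of 6 effectors were called by edgeR, with 1 of each (Slc29a3 and Casp1) at an unadjusted p below 0.05.

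P2ry12 and P2ry13 were also lower in the 40 MHC class II-positive cells that were not border marker-positive. Some of these 40 cells still carried 1 border UMI, since only 27 of the 70 MHC class II-positive cells had 0. In the 40 cells P2ry12 was at 2201, 3799, 2006 and 2975 CPM and P2ry13 at 378, 889, 360 and 493 CPM in replicates 1 to 4. Each lay below its negative-cell value in the same library. P2ry12 fell by 1.22 ± 0.22 (adjusted p = 2.55e-05) and P2ry13 by 1.06 ± 0.26 (adjusted p = 0.00425) on the log2 scale in a fit over all 4 libraries, an alternative chosen after seeing the data, since only 1 library had 10 such cells. That made 2 of 6 members called where 1.58% of all genes were. All 8 microglial markers were called lower in this fit too, with a median of -1.02. Replicate 4 held 52.9% of the positive cells, and without it P2ry12 and P2ry13 still had log2 fold changes of -2.04 and -2.11 but adjusted p-values of 0.237 and 0.248, and 1 gene of all was called.

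**Figure D3:**
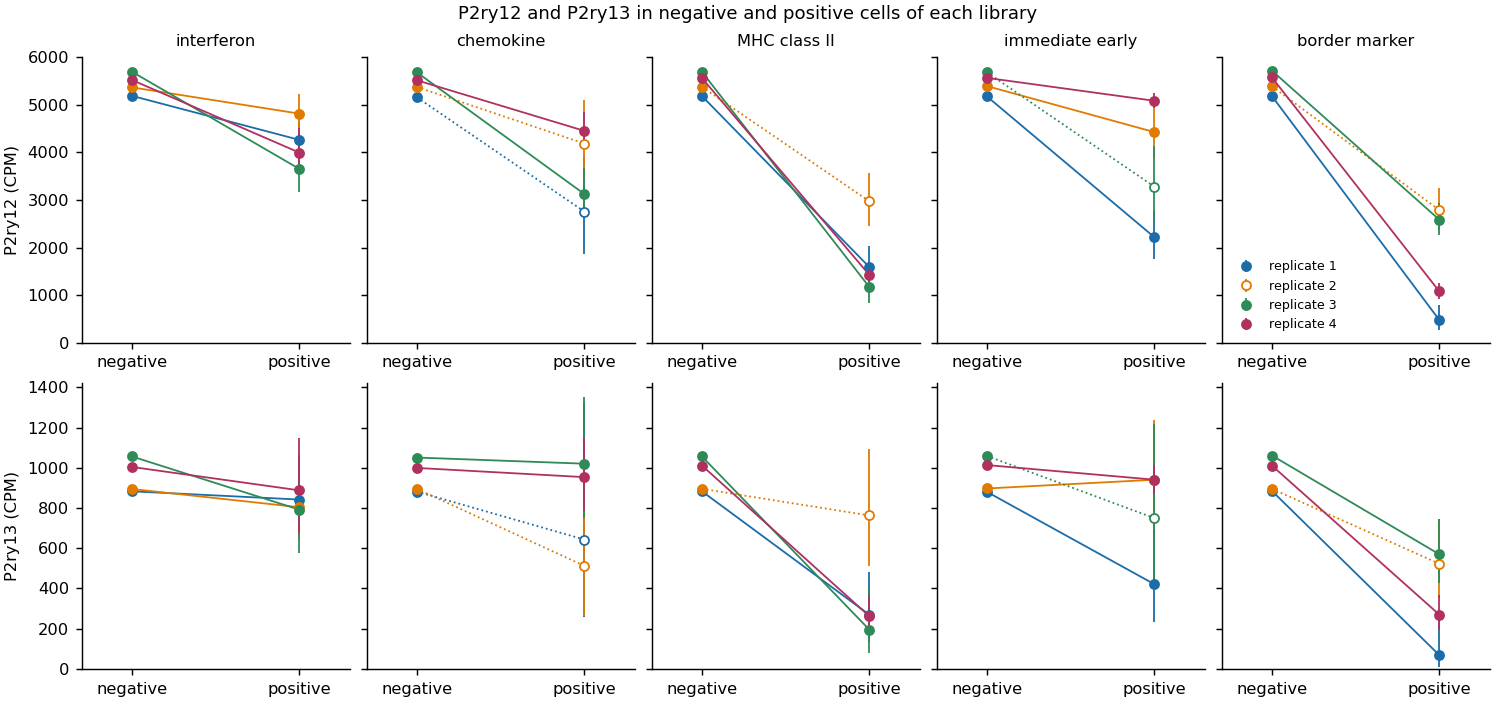
Level of P2ry12 (top) and P2ry13 (bottom) in CPM in negative and positive cells of the 5 comparisons, with 1 line per library and bars for the exact 95% counting interval in positive cells. Dotted lines and open points mark libraries with fewer than 10 positive cells, which were not tested, and P2ry12 was lower in positive cells in every library and comparison.

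In cells with border markers P2ry12 and P2ry13 were again the 2 members called, both lower. P2ry12 was at 477, 2788, 2584 and 1078 CPM in positive cells and 5181, 5388, 5716 and 5574 CPM in negative cells of replicates 1 to 4. The libraries differed by more than their counting intervals, replicate 1 being lowest, and replicate 2, with 9 positive cells, was not in the test. P2ry12 fell by 2.12 ± 0.38 on the log2 scale, to 0.229-fold (95% interval 0.136 to 0.386, adjusted p = 4.19e-06, 3 libraries). P2ry13, at 68.2, 523, 570 and 270 CPM in positive cells, fell by 1.60 ± 0.33 (adjusted p = 1.23e-04). This was 2 of 6 members, both lower, with 5.06% of all genes called. Of the 6 members 3 had an unadjusted p below 0.05 by edgeR, as did 15.6% of all genes. The microglial markers Sparc (-2.03) and Olfml3 (-1.63) had log2 fold changes of like size, and 7 of the 8 microglial markers were called lower, Cx3cr1 being the exception (-0.85, adjusted p = 0.171).

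The other 4 members were spread to both sides of 0 in border marker-positive cells. Entpd1 was at 34.1, 296, 222 and 204 CPM (log2 fold change -0.78 ± 0.32, adjusted p = 0.168), and P2ry6 at 341, 453, 485 and 375 CPM (-0.59 ± 0.31, adjusted p = 0.338). P2rx4 was at 68.2, 139, 169 and 164 CPM (0.32 ± 0.33, adjusted p = 0.748), and P2rx7 at 0, 192, 127 and 138 CPM (0.53 ± 0.36, adjusted p = 0.530). P2rx7 was above its negative-cell level in 3 of 4 libraries and had no UMI in the 12 positive cells of replicate 1. Among the effectors, Casp1, the inflammasome protease, rose by 1.23 on the log2 scale (adjusted p = 0.0133), the only 1 of 6 called, with Pycard (-0.64) and Kcnk13 (-0.84) at an unadjusted p below 0.05. Over all 4 libraries, an alternative chosen after seeing the data, Casp1 was no longer called (0.88, adjusted p = 0.0765), nor was any other effector. Gpr34 (-1.81) and Adora3 (-1.49) were called lower, and 0 of 7 enzymes, channels and transporters were called by edgeR, with Slc29a1 at an unadjusted p below 0.05. Without replicate 4, P2rx4 and P2rx7 had log2 fold changes of -0.03 and -0.04, and the number of genes called in all fell from 387 to 70, while P2ry12 and P2ry13 were still called. By library totals Entpd1 was called, at -0.81 (adjusted p = 0.0404), and of the genes called in all 298 were higher and 284 lower, compared with 237 and 150 by TMM scaling.

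The step in P2ry12 lay between cells with 1 border UMI and cells with 2 or more. Pooled over libraries, P2ry12 was at 5451 CPM in the 12430 cells with 0 border UMIs and 4791 CPM in the 233 cells with 1. It was then at 1778 CPM in the 40 cells with 2 to 4 and 1710 CPM in the 34 cells with at least 5. The libraries differed widely in these last 2 classes. In replicates 1 to 4 P2ry12 was at 594, 2447, 2649 and 1247 CPM with 2 to 4 border UMIs. With at least 5 it was at 277, 3396, 2521 and 882 CPM, from 4, 2, 9 and 19 cells. P2ry13 followed at 953, 899, 435 and 314 CPM. P2ry6 (639, 648, 375 and 468 CPM) and Entpd1 (342, 343, 201 and 220 CPM) had their lower values in the last 2 classes. P2rx7 stood at 82.0, 60.7, 109 and 160 CPM, and P2rx4 at 135, 123, 130 and 180 CPM. The last 2 values of P2rx7 came from 20 and 24 UMIs, and both were 0 CPM in replicate 1. Border marker-positive cells had a median of 1688, 4575, 5167 and 3237 UMIs per cell in replicates 1 to 4, compared with 1917 to 2938 in negative cells. Doublets were not removed, and their part in these values was not tested.

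**Figure D4:**
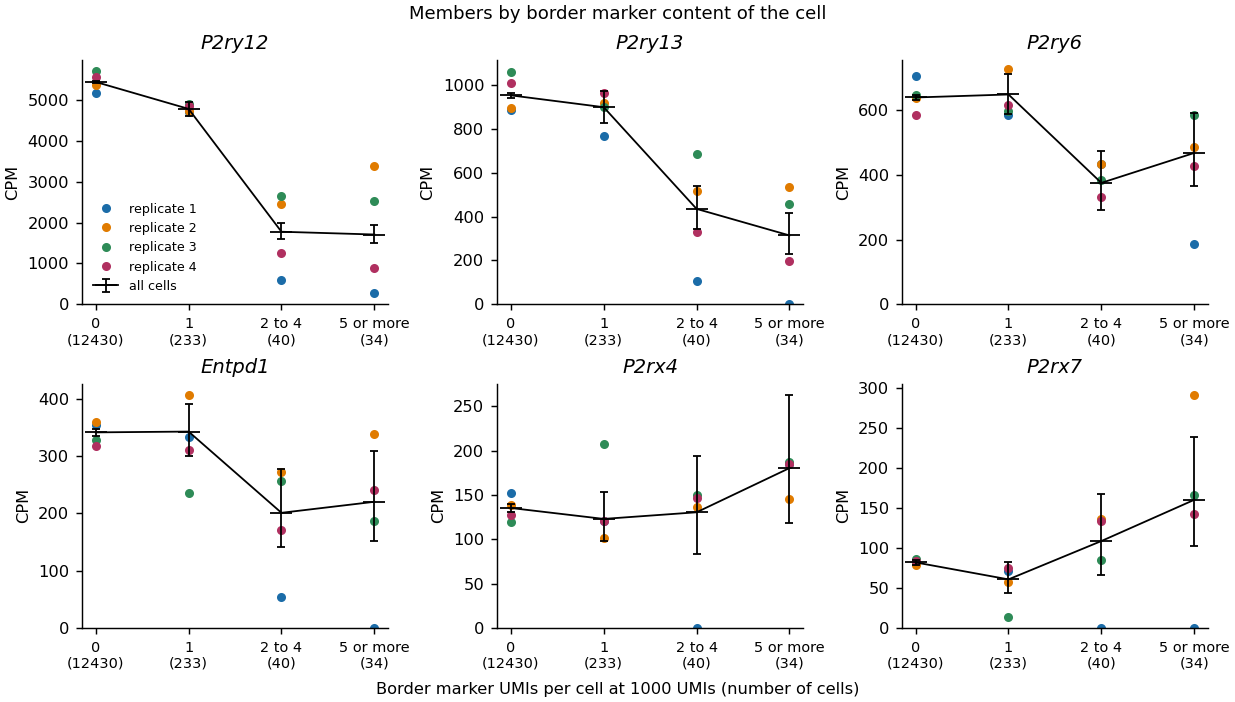
Level of each member in CPM in cells with 0, 1, 2 to 4 and at least 5 border marker UMIs after thinning to 1000 UMIs, with 1 coloured point per library and a black line for all cells with its exact 95% counting interval. P2ry12 steps down from 4791 to 1778 CPM between 1 and 2 to 4 border UMIs, while P2rx4 does not.

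P2ry12 was modestly lower in interferon-positive cells, and it was the only member called there. Interferon-stimulated genes mark a small class of microglia, here 131 cells (1.01 ± 0.347% of cells per library). P2ry12 was at 4262, 4814, 3652 and 3995 CPM in positive cells and 5187, 5366, 5694 and 5520 CPM in negative cells of replicates 1 to 4, with no overlap. P2ry12 fell by 0.38 ± 0.10 on the log2 scale, to 0.768-fold (95% interval 0.669 to 0.882, adjusted p = 0.0210, edgeR, 4 libraries). This was 1 of 6 members, with 1.42% of the 7653 genes called. The call was lost without replicate 1, 3 or 4 (adjusted p 0.0913, 0.247 and 0.548), with DESeq2 (adjusted p = 0.303) and without the replicate block (adjusted p = 0.148), while the log2 fold change lay between -0.71 and -0.12 over all 15 alternatives.

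The other 5 members passed no test in interferon-positive cells. P2ry13 was at 842, 804, 792 and 888 CPM in positive cells and 883, 894, 1056 and 1004 CPM in negative cells, lower in 4 of 4 libraries by a log2 fold change of -0.19 ± 0.13 (adjusted p = 0.816). P2ry6 ranged from 291 to 744 CPM in positive cells, a wider spread than the 587 to 702 CPM of negative cells. The log2 fold changes of P2rx4, P2rx7 and Entpd1 were 0.17, 0.03 and -0.02, and each turned to the other side of 0 under some alternatives. The difference between P2ry12 and these members was not tested.

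Without border marker-positive cells P2ry12 was still called lower in interferon-positive cells, at -0.30 ± 0.07 on the log2 scale (adjusted p = 0.00619), with 1.24% of all genes called. Of the 131 positive cells 7 were border marker-positive. Of the pathway genes only Gpr34 was called, at -0.50 (adjusted p = 0.00327) with all cells and -0.39 (adjusted p = 0.000822) without border marker-positive cells. Enpp4 and Kcnk13 had an unadjusted p below 0.05 with all cells. None of the 8 microglial markers was called by edgeR in either fit, although 5 had an unadjusted p below 0.05 with all cells, and their median log2 fold change was -0.22 with all cells and -0.12 without border marker-positive cells.

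In chemokine-positive cells no member was called in the 2 libraries with at least 10 such cells. Ccl3 and Ccl4 are produced by microglia on activation. P2ry12 was at 2756, 4184, 3124 and 4452 CPM in the 4, 8, 18 and 39 positive cells of replicates 1 to 4 and at 5155, 5374, 5680 and 5514 CPM in negative cells. Every library was thus lower in positive cells. The log2 fold change was -0.63 ± 0.23 (unadjusted p = 0.00559, adjusted p = 0.690, edgeR), and 0 of 6 members were called, with 0.183% of all genes. Of the members 1, P2ry12, had an unadjusted p below 0.05, and DESeq2 also called 0. Over all 4 libraries, an alternative chosen after seeing the data, P2ry12 was called at -0.85 ± 0.21 (adjusted p = 0.0285), with 0.222% of all genes called. The microglial marker Tmem119 was called lower in that fit as well, at -0.95 (adjusted p = 0.00607), the 1 of 8 called, and the median of the 8 was -0.38.

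P2rx4 was the 1 member with higher values in chemokine-positive cells in all 4 libraries. It was at 184, 299, 170 and 179 CPM in positive cells, from 38 UMIs in all, and at 151, 138, 121 and 127 CPM in negative cells. The log2 fold change was 0.45 ± 0.34 (adjusted p = 0.9999), so it was within the error of these few cells. P2ry6 was higher in replicates 1 and 2 and lower in replicates 3 and 4. P2ry13 stood at 643, 512, 1020 and 953 CPM in positive cells and 881, 895, 1051 and 999 CPM in negative cells. It was lower in every library, by a log2 fold change of -0.12 ± 0.22 in the 2 libraries tested and -0.46 ± 0.23 over all 4 (unadjusted p = 0.0488, adjusted p = 0.749). No chemokine-positive cell was border marker-positive. By edgeR 0 of 2 other receptors, 0 of 7 enzymes, channels and transporters, 0 of 6 effectors and 0 of 8 microglial markers were called in the 2 libraries, with Pnp and Tmem119 at an unadjusted p below 0.05.

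In immediate early gene-positive cells no member was called either. Immediate early genes are switched on within minutes of a stimulus and also by tissue dissociation. P2ry12 was at 2218, 4426, 3279 and 5083 CPM in the 15, 17, 8 and 249 positive cells of replicates 1 to 4 and at 5175, 5392, 5681 and 5564 CPM in negative cells. It was lower in all 4 libraries, but least so in replicate 4, which held 86.2% of the positive cells. The log2 fold change was -0.64 ± 0.24 (unadjusted p = 0.00812, adjusted p = 0.9996, 3 libraries), and 0 of 6 members were called, with 0.418% of all genes. P2ry12 was the 1 member with an unadjusted p below 0.05, and DESeq2 called 0.

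Replicate 4, the library that may be the one sorted again, has the most positive cells and so the narrowest counting intervals. There P2ry12 was at 5083 CPM (95% counting interval 4922 to 5249) in positive and 5564 CPM in negative cells, a ratio of 0.914. P2ry13 was at 941 CPM in positive and 1013 CPM in negative cells, P2ry6 at 547 and 580 CPM, Entpd1 at 330 and 322 CPM, P2rx4 at 102 and 131 CPM, and P2rx7 at 76.0 and 88.8 CPM. In replicate 1, where P2ry12 was lowest, 5 of the 15 positive cells were border marker-positive, and border markers summed to 4043 CPM in positive and 33.8 CPM in negative cells. Over all 4 libraries, an alternative chosen after seeing the data, P2ry12 was called at -0.81 ± 0.21 (adjusted p = 0.0303), with 0.340% of all genes called. The microglial marker Olfml3 was called lower in that fit too (-0.84, adjusted p = 0.0249), and the median of the 8 markers was -0.57. Without border marker-positive cells P2ry12 was not called (-0.61 ± 0.20, adjusted p = 0.939). No gene of the pathway lists and 0 of 8 microglial markers were called by edgeR in the 3 libraries, with Gpr34, Fcrls, Sparc and Olfml3 at an unadjusted p below 0.05.

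The classes were not separate sets of cells. Of the 289 immediate early gene-positive cells 12 were chemokine-positive, 12 MHC class II-positive and 16 border marker-positive. These made up 4.15%, 4.15% and 5.54% of the immediate early class, and 17.4%, 17.1% and 21.6% of the chemokine, MHC class II and border marker classes. Of the 70 MHC class II-positive cells 6 were interferon-positive and 0 chemokine-positive. The differences in P2ry12 between the classes were not tested against each other, since the classes share their negative cells.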

How the data were processed

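Cell Ranger 2.2.0 made the deposited UMI counts from 10x Genomics 3′ libraries on mm10 (GRCm38). The values were raw counts per gene and cell, with no normalization by the authors. The 6 members and all gene lists were chosen with earlier results of these data known. The named genes were all members, the 3 highest genes of each pathway list and those past the threshold. Cells needed 400 genes or more and a mitochondrial share of 10% or less. Doublets were not called. Classes were set in cells thinned to 1000 UMIs, and levels came from full counts, summed per library and class. Sums were tested with edgeR 4.0.16 (TMM, quasi-likelihood, library as block, since both classes came from the same animal), which shares the estimate of spread across genes. DESeq2 1.42.0 and other scaling, filters, thresholds and left-out libraries were alternatives. Intervals on counts were exact Poisson and on shares exact Clopper-Pearson, at 95%, and cover counting error only. The spread between 4 mice is the only replicate error, and each class comparison rests on few positive cells. The study's methods place 1 repeated sort, after a clog, among these mice, and the labels do not mark which library it was. One gene that met the rule for likeness to P2ry12 is not reported here.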

Additional observations from a re-analysis of the deposited data

How the results depend on the processing

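The mean level of each member moved by less than 1 SD under all 48 alternatives tried (TMM-scaled totals, stricter cell filters, no border marker-positive cells, each library left out), and the share of cells with a UMI moved with 1 alternative, the full counts, to 99.7%, 86.3%, 76.1%, 27.7%, 18.6% and 54.9% for P2ry12, P2ry13, P2ry6, P2rx4, P2rx7 and Entpd1. Of 396 recomputed log2 fold changes 358 kept their direction and their side of the threshold. P2ry12 and P2ry13 were called lower in border marker-positive cells under all 13 alternatives. In MHC class II-positive cells P2ry12 was called under 11 of 12 and P2ry13 under 10 of 12. With at least 1 UMI of the list 1 member was called there, with 2.70% of all genes. With the libraries left out in turn, the number of members called was 0 to 1 in interferon-positive, 0 to 2 in MHC class II-positive, 0 to 0 in immediate early-positive and 2 to 2 in border marker-positive cells, and the number of genes called was 66 to 99, 1 to 365, 19 to 29 and 70 to 470. In interferon-positive cells 0 members were called with DESeq2 (70 genes), without the replicate block, and with at least 1 UMI of the list. In chemokine-positive cells P2ry12 made 1 member called on full counts (0.941% of all genes called), by library totals (0.274%) and with at least 1 UMI (0.523%). It was also called there over all libraries, with (0.222%) or without (0.183%) border marker-positive cells. In immediate early-positive cells P2ry12 made 1 member called on full counts (0.771% of all genes), with at least 1 UMI (0.601%) and over all libraries (0.340%). The cause of these differences was not tested.

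The count of all genes called changed by more than 1.5 times under further settings. Classes called on full counts gave 212, 72, 298, 59 and 601 genes in interferon-, chemokine-, MHC class II-, immediate early- and border marker-positive cells. No filter on low values gave 173 in interferon-, 117 in immediate early- and 668 in border marker-positive cells, where more genes were tested. Library totals gave 696 in MHC class II- and 582 in border marker-positive cells. In chemokine-positive cells there were 0 with at least 3 UMIs, 6 with negative cells matched on UMI total, 3 with DESeq2, 4 without the replicate block and 40 with at least 1 UMI, and in border marker-positive cells there were 645 without the replicate block. At least 1 UMI gave 207 in MHC class II-positive cells, and leaving out border marker-positive cells gave 121 there over all libraries. DESeq2 gave 11 in immediate early-positive cells, and leaving out border marker-positive cells gave 15, or 12 over all libraries. The fits without the replicate block changed no other call of a member.

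A total of 19 log2 fold changes turned to the other side of 0, none of them called in either fit. In interferon-positive cells P2rx7 was at -0.032 with at least 3 UMIs, -0.083 on full counts, -0.10 with matched cells, -0.039 without border marker-positive cells and -0.092 without a filter, and with the libraries left out in turn it was between -0.11 and 0.20. There P2rx4 was at -0.11 on full counts and -0.24 with at least 1 UMI, and between -0.073 and 0.26 with libraries left out, and Entpd1 was at 0.023 with DESeq2 and between -0.066 and 0.0073. In MHC class II-positive cells P2rx4 was at 0.14 on full counts and between -0.48 and 0.13, and P2ry6 at 0.011 with at least 1 UMI. In border marker-positive cells P2rx4 was at -0.0086 on full counts and between -0.027 and 0.59, and P2rx7 between -0.043 and 0.82 with libraries left out. The fits with at least 1 UMI of the list and with all libraries were added after seeing the data. Not run, for too few libraries with 10 positive cells, were the chemokine fits without replicate 3 or 4, the MHC class II fits with at least 3 UMIs, with at least 1000 genes per cell and without border marker-positive cells in libraries of at least 10, and the immediate early fit with at least 3 UMIs. Depth limits P2rx4 and P2rx7 most, with 25 and 9 UMIs in the MHC class II-positive cells.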
